A study of Mus musculus with 3 samples.

Results

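The genes described here are 9 transcription factors of the gonad and the adrenal: the nuclear receptors Nr5a1, Nr4a1, Nr2f1, Nr2f2 and Nr0b1, the GATA factors Gata4 and Gata6, the zinc finger factor Wt1 and the LIM homeobox factor Lhx9. They were chosen by name, with earlier results of these data known, from the 24698 genes of the merged count table. Each is followed by day of culture and by whether a cell holds a UMI of Cyp11a1, the enzyme that makes pregnenolone from cholesterol. A UMI is a molecule tag, so that 1 UMI stands for 1 captured RNA molecule. The study cultured Sca1-positive, cKit-negative cells sorted from the testes of adult male C57BL/6 mice, 8 to 12 weeks old, and read single cells by Drop-seq on days 4, 7 and 14, with 1 library per day. All cultures started from 100000 cells per well on Matrigel in DMEM/F12 with 10% FBS, with 18 h of recovery and 3 days of expansion in PDGFAA, PDGFBB and FGF2 (10 ng/ml each) and SAG (0.5 µM). The differentiation medium added LiCl2 (5 mM) and DAPT (10 µM), and the cells had been in it for 0, 3 and 10 days on days 4, 7 and 14. Day of culture, time in that medium and library therefore cannot be told apart.

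As background, NR5A1, also called SF1, binds the promoters of most genes of steroid synthesis, and the gonad does not form without it. GATA4 and WT1 act in the early gonad before and beside NR5A1, LHX9 acts on the Nr5a1 promoter there, and NR0B1, also called DAX1, is a repressor that binds NR5A1. NR2F2, also called COUP-TFII, marks the interstitial stroma from which Leydig cells arise, and NR4A1 is induced within minutes by hormones and by stress.

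The 3 libraries hold 2980, 2171 and 973 cells with 12677110, 11627440 and 5324400 UMIs on days 4, 7 and 14. A median cell had 2886.5, 3285 and 3272 UMIs and 1518.5, 1679 and 1569 detected genes. A level is given as the UMIs of a gene summed over the cells of a group per 1000000 UMIs of those cells (CPM). The ranges in brackets are exact 95% intervals, Poisson for levels and binomial for shares and ratios, and they cover counting error only, since the cells of a day come from 1 library. A gene with 0 UMIs is below a limit of 3 counts, which is 0.237, 0.258 and 0.563 CPM on the 3 days. Nr0b1 had 0 UMIs on each day, so it lies below those limits and has no further value here. The other 8 genes were read on each day.

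Nr5a1, the regulator of steroid synthesis, stood at 11.2 CPM on day 4 (142 UMIs, 9.43 to 13.2), 21.8 CPM on day 7 (253 UMIs, 19.2 to 24.6) and 136 CPM on day 14 (723 UMIs, 126 to 146). The 3 intervals are apart, with day 14 the highest and day 4 the lowest. At least 1 Nr5a1 UMI was present in 4.43%, 9.95% and 36.4% of the cells, and in 1.66%, 3.62% and 17.5% when each cell was thinned to 1500 UMIs and shallower cells were left out. Thinning draws the same number of UMIs from each cell, so that deep and shallow cells can be compared. For a cell type that should lack Nr5a1, 11 cells of all days with UMIs of at least 2 macrophage markers were used (median depth 2918 UMIs). Of them 2 held Nr5a1 (18.2%, 2.28 to 51.8), too few cells to bound how often a UMI falls in a cell that did not make it.

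Gata4, a GATA factor of the somatic gonad, stood at 16.5 CPM on day 4 (209 UMIs, 14.3 to 18.9), 19.95 CPM on day 7 (232 UMIs, 17.5 to 22.7) and 40.4 CPM on day 14 (215 UMIs, 35.2 to 46.2). Day 14 is the highest, and the intervals of days 4 and 7 overlap. Gata6, its close relative in the adult Leydig cell, stood at 4.50 CPM (57 UMIs, 3.41 to 5.83), 3.61 CPM (42 UMIs, 2.60 to 4.88) and 22.9 CPM (122 UMIs, 19.03 to 27.4) on the same days. Here too day 14 is apart from the others, which overlap. Gata4 was read in 6.58%, 9.12% and 16.0% of the cells (2.87%, 2.53% and 5.16% after thinning). Gata6 was read in 1.74%, 1.84% and 7.91% (0.449%, 0.631% and 3.02% after thinning).

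Nr2f2, the nuclear receptor of the stroma, had the opposite order in time. It stood at 142 CPM on day 4 (1795 UMIs, 135 to 148), 141 CPM on day 7 (1641 UMIs, 134 to 148) and 72.3 CPM on day 14 (385 UMIs, 65.3 to 79.9), in 36.3%, 39.4% and 26.1% of the cells (18.2%, 16.9% and 10.1% after thinning). Lhx9, a factor of the early gonad, stood at 50.6 CPM (641 UMIs, 46.7 to 54.6), 54.4 CPM (632 UMIs, 50.2 to 58.8) and 29.1 CPM (155 UMIs, 24.7 to 34.1). For both genes days 4 and 7 overlap and day 14 lies below them. Lhx9 was read in 17.2%, 22.0% and 13.7% of the cells (7.90%, 7.52% and 4.66% after thinning).

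Nr2f1, a relative of Nr2f2, was highest on day 7, with 4.50 CPM on day 4 (57 UMIs, 3.41 to 5.83), 8.43 CPM on day 7 (98 UMIs, 6.84 to 10.3) and 3.19 CPM on day 14 (17 UMIs, 1.86 to 5.11). The intervals of days 4 and 14 overlap. Nr4a1, the receptor induced by hormones and stress, stood at 6.15 CPM (78 UMIs, 4.86 to 7.68), 5.50 CPM (64 UMIs, 4.24 to 7.03) and 9.02 CPM (48 UMIs, 6.65 to 12.0), with neighbouring intervals that overlap. Wt1, a marker of the coelomic epithelium and of Sertoli cells, had 27, 16 and 6 UMIs, which is 2.13 CPM (1.40 to 3.10), 1.38 CPM (0.787 to 2.23) and 1.1 CPM (0.414 to 2.45). Its 3 intervals overlap, and fewer than 1% of the cells of each day held a Wt1 UMI.

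**Figure D1:**
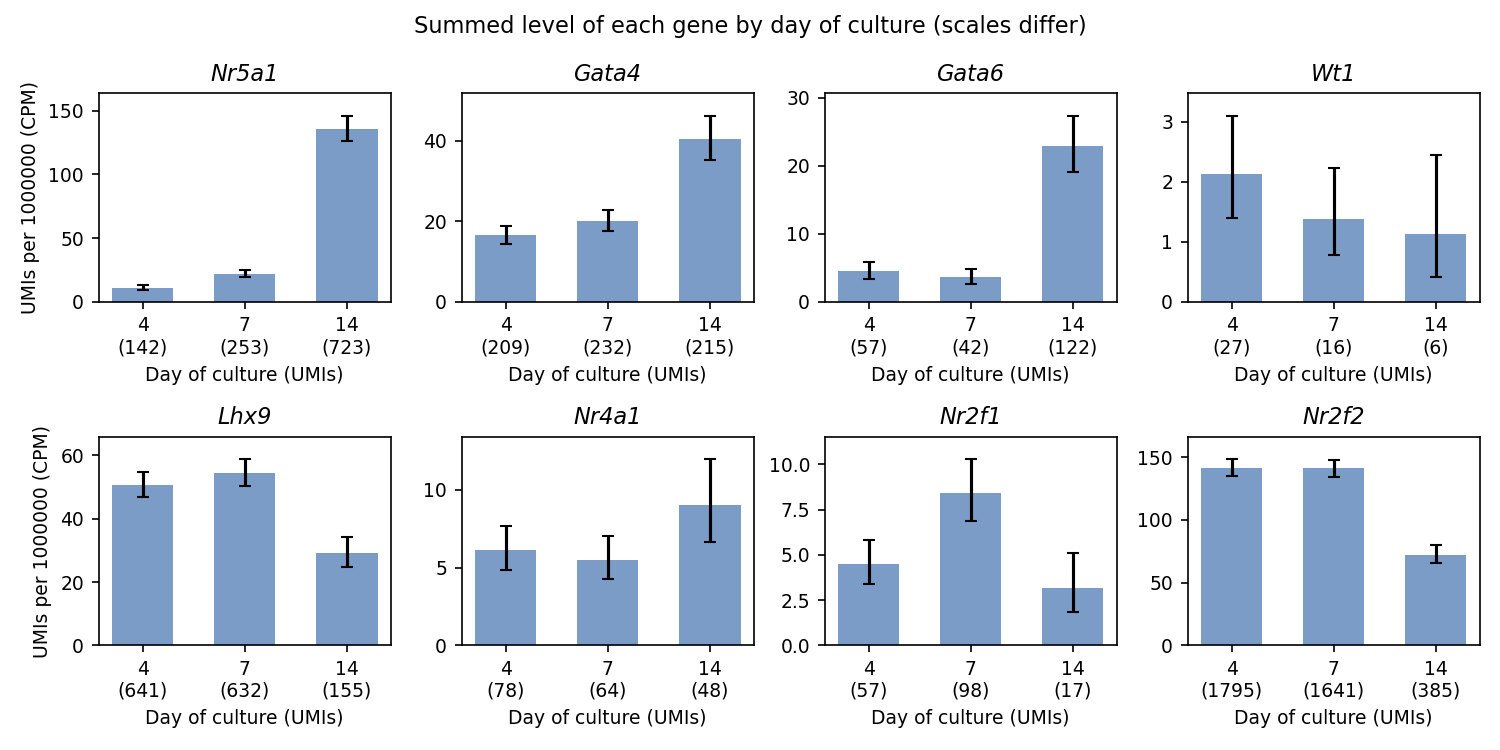
Summed level of 8 of the 9 genes on days 4, 7 and 14 in CPM, with exact Poisson 95% intervals and the UMIs under each bar; Nr5a1 goes from 11.2 to 136 CPM and Nr2f2 from 142 to 72.3 CPM between days 4 and 14. Nr0b1 had 0 UMIs and is not drawn, and the scales differ between panels.

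Between days 4 and 14, 3 of the 8 genes rose at least 2-fold and 0 fell. A gene counts as changed here when its level differs at least 2-fold after 1 CPM is added to both groups, and it is tested when the groups together hold at least 20 UMIs. By this rule 13.5% of the 12712 genes tested were higher on day 14 and 15.3% lower. Nr5a1 rose 12.1-fold (10.1 to 14.6, log2 3.49), Gata6 5.10-fold (3.69 to 7.11, log2 2.12) and Gata4 2.45-fold (2.02 to 2.98, log2 1.24). Nr2f2 lay just inside the 2-fold line, at a ratio of 0.511 (0.456 to 0.570, log2 -0.96), and Lhx9 at 0.576 (0.480 to 0.687, log2 -0.78). Nr4a1 had a ratio of 1.47 (1.00 to 2.13), and the intervals of Nr2f1 (0.710, 0.387 to 1.24) and Wt1 (0.529, 0.179 to 1.31) hold 1. The median log2 ratio was 0.05 for the 8 genes and -0.05 for all genes tested, so the set as a whole did not move in 1 direction. With cells thinned to 1500 UMIs the log2 ratio of Gata4 was 0.85, below the 2-fold line, and with cells weighted equally that of Nr4a1 was 1.06, above it, and that of Gata6 1.49. Wt1 and Nr2f1 turned direction with cells thinned to 1500 UMIs (log2 0.33 on 3 and 6 UMIs, 0.68 on 7 and 11 UMIs).

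Most of that change falls after day 7. From day 4 to day 7, 0 of the 8 genes rose and 0 fell by the rule, where 2.25% of the 12954 genes tested were higher and 2.76% lower. The ratio was 1.94 for Nr5a1 (1.58 to 2.40, log2 0.90), which passes the line with cells weighted equally and with cells thinned to 1500 UMIs. It was 1.87 for Nr2f1 (1.34 to 2.65, log2 0.78), which passes it with thinned cells (log2 1.35 at 1500 UMIs). Nr2f2 stood at 0.997 (0.932 to 1.07). From day 7 to day 14, 2 of 8 rose and 1 fell, beside 10.1% of the 12656 genes tested that were higher and 14% that were lower. Nr5a1 rose 6.24-fold (5.40 to 7.23, log2 2.59) and Gata6 6.34-fold (4.43 to 9.24, log2 2.37). Nr2f1 fell 2.64-fold (1.57 to 4.71), a call that ends with cells thinned to 1500 UMIs (log2 -0.67). Gata4, at 2.02 (1.67 to 2.45, log2 0.98), lay on the line. With cells weighted equally or thinned to 1000 UMIs, 4 genes rose (Gata4 and Nr4a1 added), and with the stricter cell filter 2 fell (Nr2f2 added). Median log2 ratios were 0.05 for the 8 genes and 0.09 for all genes from day 4 to day 7, and 0.23 and -0.13 from day 7 to day 14.

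Cells with at least 1 Cyp11a1 UMI are called Cyp11a1-positive. They were 24 cells on day 4 (0.805%, 0.517 to 1.20), 48 on day 7 (2.21%, 1.63 to 2.92) and 556 on day 14 (57.1%, 54.0 to 60.3). Cyp11a1 itself stood at 19.5, 56.8 and 2089 CPM. On day 14 the positive cells were deeper, with a median of 4621 UMIs against 2321 in the negative cells, and 140 of them held exactly 1 Cyp11a1 UMI. Some negative cells may therefore have made Cyp11a1 RNA that was not captured. Thinned to 1500 UMIs, 47.0% of the day 14 cells were positive.

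On day 14, Nr5a1 and Nr4a1 were the 2 genes of the set that differed at least 2-fold between these classes, in opposite directions. Nr5a1 stood at 165 CPM in positive cells (628 UMIs, 152 to 178) and 62.5 CPM in negative cells (95 UMIs, 50.6 to 76.5), 2.64-fold higher (2.12 to 3.31, log2 1.39). Nr4a1 stood at 4.73 CPM (18 UMIs, 2.80 to 7.48) and 19.8 CPM (30 UMIs, 13.3 to 28.2), 4.18-fold lower in the positive cells (2.25 to 7.95, log2 -1.86). Thus 1 of the 6 genes tested was higher and 1 lower, beside 3.37% and 3.15% of all 10375 genes tested. The median log2 ratio was -0.09 over the 6 genes and -0.04 over all genes. An Nr5a1 UMI was present in 51.1% of positive and 16.8% of negative cells (22.1% and 9.76% after thinning), and an Nr4a1 UMI in 3.24% and 5.76% (0.805% and 1.35%). The Nr5a1 call ended at a log2 ratio of 0.77 with Cyp17a1 in place of Cyp11a1 and at 0.97 with Cyp11a1 read after thinning, which changes depth as well as class. The Nr4a1 call was kept with at least 2 or 5 Cyp11a1 UMIs and with Hsd3b1 or Cyp17a1 in place. It was lost on 4 against 4 UMIs, at -0.65 with cells thinned to 1500 UMIs and 0.15 with Cyp11a1 read after thinning.

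The other genes differed by less than 2-fold between the classes. Gata4 stood at 44.7 CPM in positive cells (170 UMIs, 38.2 to 51.9) and 29.6 CPM in negative cells (45 UMIs, 21.6 to 39.6), a ratio of 1.51 (1.08 to 2.14), and the 2 levels overlap in their intervals. Gata6 stood at 26.3 CPM (100 UMIs, 21.4 to 32.0) and 14.5 CPM (22 UMIs, 9.08 to 21.9), a ratio of 1.81 (1.1 to 3.02, log2 0.82) that was 0.08 on the log2 scale with thinned cells and 1.70 with Hsd3b1 in place of Cyp11a1. The stromal gene Nr2f2 was the lower one in positive cells, at 58.6 CPM (223 UMIs, 51.2 to 66.8) against 107 CPM (162 UMIs, 90.9 to 124), a ratio of 0.549 (0.447 to 0.677). Lhx9 stood at 24.2 CPM (92 UMIs, 19.5 to 29.7) and 41.5 CPM (63 UMIs, 31.9 to 53.1), a ratio of 0.583 (0.418 to 0.816) that was -1.66 on the log2 scale with Cyp11a1 read after thinning. For Nr2f2 and Lhx9 the intervals of the classes are apart. Wt1 (3 and 3 UMIs) and Nr2f1 (13 and 4 UMIs) were below the 20 UMIs needed.

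On day 7 the 48 positive cells already held more Nr5a1 than the rest. The level was 92.4 CPM (24 UMIs, 59.2 to 137) against 20.1 CPM in 2123 negative cells (229 UMIs, 17.6 to 22.9), a ratio of 4.59 (2.88 to 7.00, log2 2.14). Here the positive cells were the shallower ones, with a median of 2454.5 against 3293 UMIs. Gata4 stood at 38.5 against 19.5 CPM (10 and 222 UMIs, ratio 1.97, 0.932 to 3.69). Nr2f2 stood at 73.1 against 143 CPM (19 and 1622 UMIs, ratio 0.513, 0.308 to 0.803), and 8 of those 19 UMIs lay in 1 cell, so that without cells above 20000 UMIs its log2 ratio went from -0.95 to -1.88. With Cyp17a1 in place of Cyp11a1 it was 0.74, on 8 positive cells. Lhx9 stood at 26.9 against 55.0 CPM (7 and 625 UMIs, ratio 0.490, 0.196 to 1.02), and its log2 ratio was -2.18 with cells weighted equally. Gata6 had 0 UMIs in the positive cells, a limit of 11.5 CPM that lies above its 3.69 CPM in the negative cells. Myofibroblast markers summed to 643 CPM in the day 7 positive cells (549 to 748) against 4558 CPM in the negative ones. Stromal progenitor markers summed to 735 CPM (635 to 847) against 793 CPM. The part of these cell types in the day 7 class levels was not tested.

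On day 4 the 24 positive cells held 6 Nr5a1 UMIs, 32.8 CPM (12.0 to 71.4), against 10.9 CPM in the negative cells (136 UMIs, 9.13 to 12.9), a ratio of 3.01 (1.09 to 6.73) between levels whose intervals overlap. Nr2f2 stood at 76.5 against 143 CPM (14 and 1781 UMIs, ratio 0.537, 0.293 to 0.903). Gata4 had 4 UMIs in these cells, Lhx9 6 and Gata6 2, and Wt1, Nr4a1 and Nr2f1 had 0, so that each gene of the set rests on few UMIs here. The positive cells were deeper (median 6017 against 2876.5 UMIs), and 15 of the 24 held exactly 1 Cyp11a1 UMI. They also held 34 of the 35 day 4 UMIs of Cyp11b1, the adrenal enzyme that makes corticosterone, in 3 cells (186 against 0.0800 CPM), while the adrenal markers Cyp21a1 and Mc2r were at 0. The Sertoli markers summed to 6426 against 937 CPM, led by Ctsl (5879 against 830 CPM), with Amh, Cldn11, Dhh, Rhox5 and Gata1 at 0 UMIs in the positive cells. The part of these markers in the day 4 class levels was not tested.

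**Figure D2:**
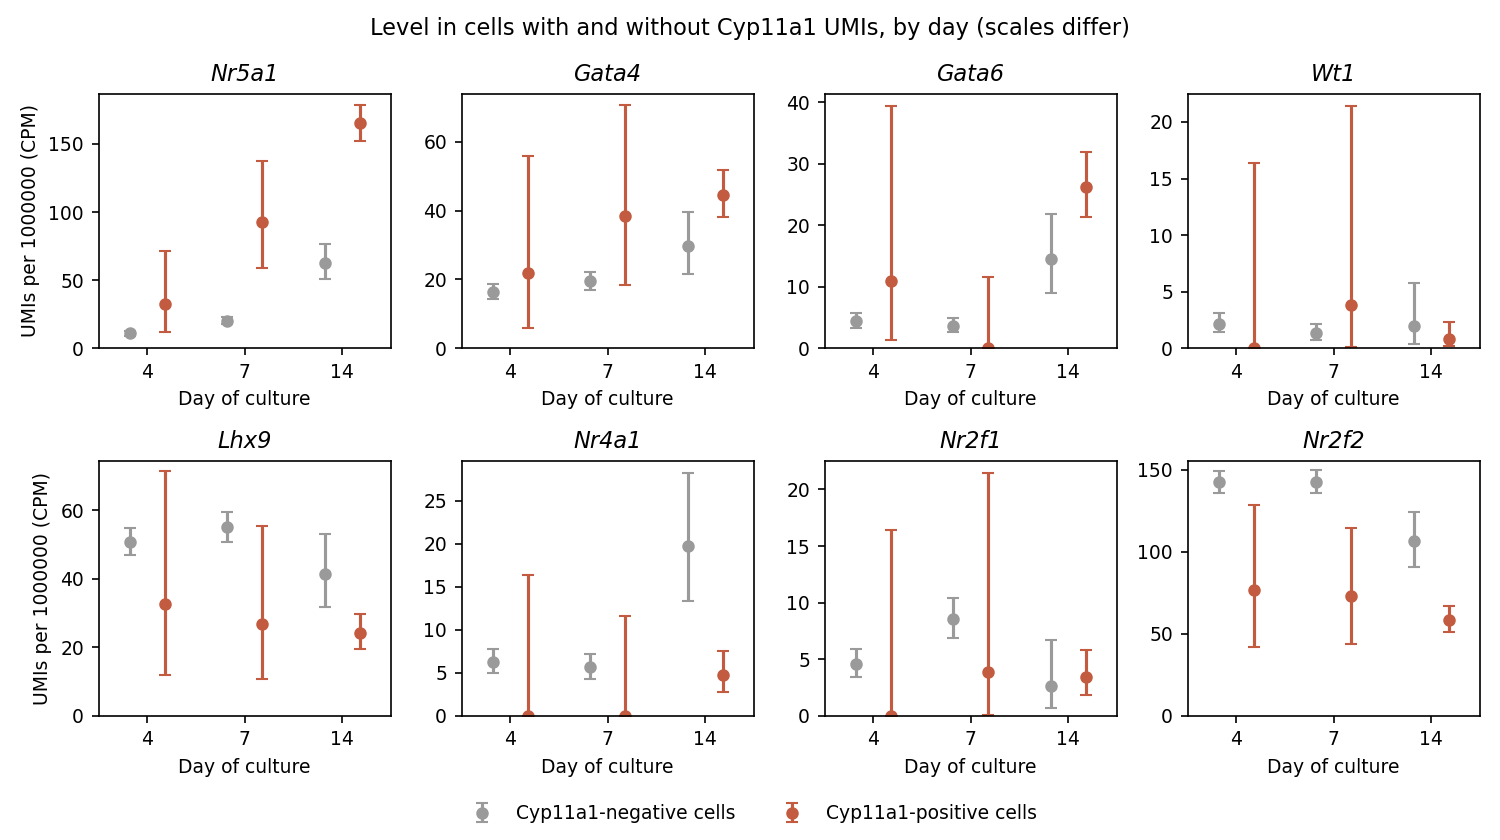
Level of 8 genes in Cyp11a1-negative (grey) and Cyp11a1-positive (red) cells of each day in CPM, with exact Poisson 95% intervals; a group with 0 UMIs is drawn at 0 with a bar up to its limit of 3 counts. Nr5a1 is 165 against 62.5 CPM and Nr4a1 4.73 against 19.8 CPM on day 14, and the scales differ between panels.

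The rise of Nr5a1 was also present in cells without Cyp11a1. Among negative cells it went from 10.9 CPM on day 4 to 62.5 CPM on day 14, a ratio of 5.75 (4.37 to 7.52, log2 2.42). In the same cells Gata6 went from 4.40 to 14.5 CPM (3.29, 1.91 to 5.48) and Nr4a1 from 6.24 to 19.8 CPM (3.16, 2.004 to 4.88). Gata4 had a ratio of 1.81 (1.28 to 2.503), and Nr2f2 stood at 107 against 143 CPM (0.748, 0.633 to 0.879). Lhx9 stood at 41.5 against 50.8 CPM (0.816, 0.620 to 1.06). Between the positive cells of day 7 and day 14, Nr5a1 had a ratio of 1.79 (1.19 to 2.81), Gata4 1.16 (0.616 to 2.46) and Nr2f2 0.801 (0.501 to 1.36). Gata6 had 0 UMIs in those of day 7 and 100 UMIs in those of day 14 (26.3 CPM), with a lower limit of 1.82 for the ratio. Nr5a1 thus differed between days within the negative class as well as between the classes.

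Over classes of rising Cyp11a1 on day 14 (0, 1 to 4, 5 to 19 and at least 20 UMIs in the cell, with 417, 245, 182 and 129 cells), Nr5a1 stood at 62.5, 114, 191 and 195 CPM. Its first 3 intervals are apart (50.6 to 76.5, 97.0 to 134, 164 to 220), and the last 2 overlap (173 to 219). Nr2f2 went the other way, at 107, 76.0, 53.8 and 45.8 CPM. Lhx9 stood at 41.5, 37.6, 18.6 and 15.5 CPM and Gata6 at 14.5, 17.7, 22.8 and 36.4 CPM. For Nr2f2, Lhx9 and Gata6 neighbouring classes overlap and the first and last classes are apart. The classes of Gata4, at 29.6, 39.1, 48.7 and 47.2 CPM, overlap throughout. Nr4a1 differed between the cells with and without Cyp11a1 and not among the former, at 19.8, 5.16, 4.14 and 4.72 CPM (30, 7, 4 and 7 UMIs). The classes differ in median depth (2321, 4133, 3224 and 9609 UMIs). With classes cut by Cyp11a1 per 10000 UMIs instead, at 0, up to 10, up to 50 and above, Nr5a1 stood at 62.5, 123, 194 and 207 CPM and Nr2f2 at 107, 71.4, 45.3 and 53.2 CPM.

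**Figure D3:**
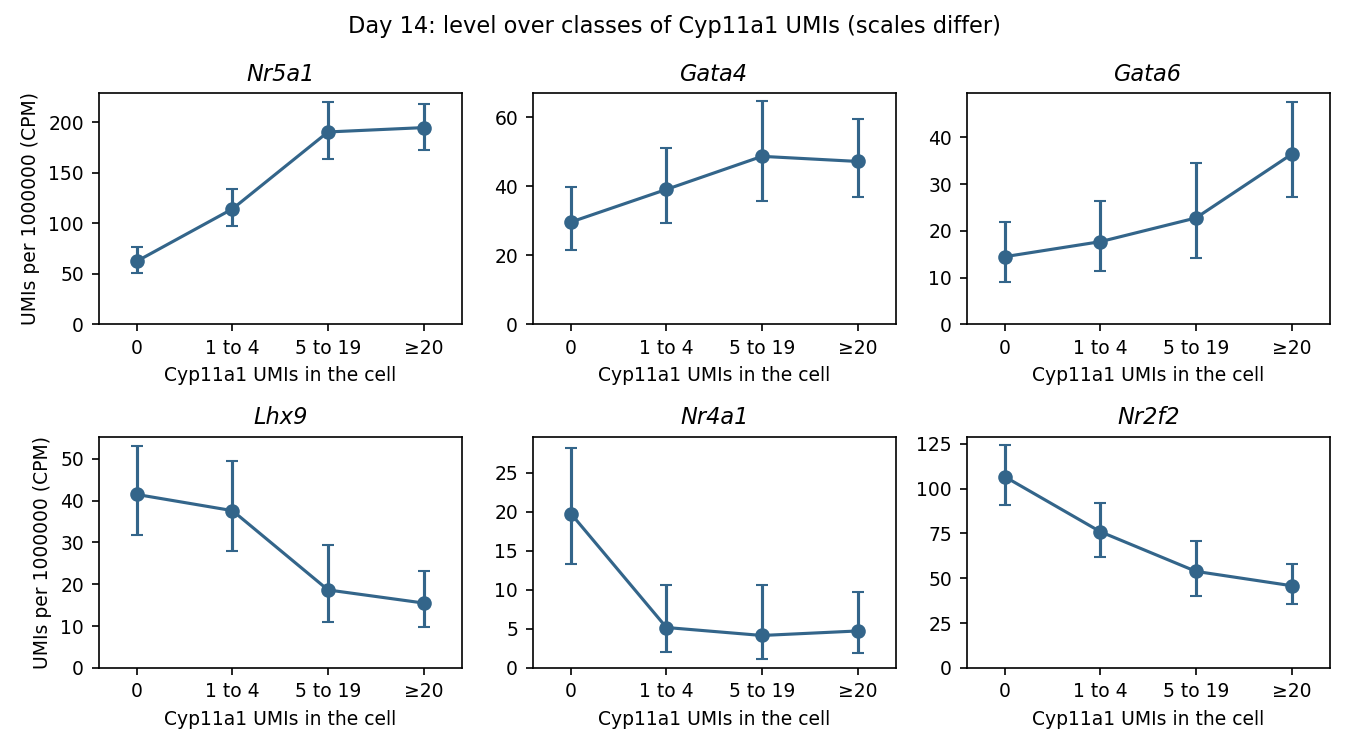
Day 14 level of 6 genes in CPM over cells with 0, 1 to 4, 5 to 19 and at least 20 Cyp11a1 UMIs, with exact Poisson 95% intervals; Nr5a1 goes from 62.5 to 195 CPM and Nr2f2 from 107 to 45.8 CPM. The scales differ between panels.

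Seen from the regulator, Nr5a1 and Cyp11a1 were read in the same cells mainly on day 14. Of the 354 cells with Nr5a1 on that day, 284 held Cyp11a1 (80.2%, 75.7 to 84.2), and these 284 are 51.1% of the 556 Cyp11a1-positive cells (46.8 to 55.3). On day 7, 16 of 216 Nr5a1 cells held Cyp11a1 (7.41%, 4.29 to 11.8), which is 33.3% of the 48 positive cells. On day 4 it was 5 of 132 (3.79%), or 20.8% of the 24. Among all cells, the Cyp11a1-positive share was 57.1%, 2.21% and 0.805% on days 14, 7 and 4, so it was higher among cells with Nr5a1 on each day. Before day 14 most cells with Nr5a1 RNA, like most cells of those days, had no Cyp11a1 UMI. On day 14 the Nr5a1-positive cells, 36.4% of the cells, held 76.5% of all Cyp11a1 UMIs. The Cyp11a1-positive cells of day 14 were the deeper ones (median 4621 against 2321 UMIs), as were the Nr5a1-positive cells. These shares were not taken after thinning, so the part of depth in them was not tested.

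The other genes can be compared between cells with and without Nr5a1. On day 7, in 216 and 1955 cells, Nr2f2 stood at 144 and 141 CPM (1.02, 0.897 to 1.16), Gata4 had a ratio of 1.09 (0.758 to 1.52), and Cyp11a1 stood at 171 and 33.5 CPM (5.09, 4.36 to 5.95). On that day Nr2f2 thus had the same level, within counting error, in cells with and without Nr5a1. Of the 660 Cyp11a1 UMIs of day 7, 336 lay in 16 cells with Nr5a1, and the interval of the Cyp11a1 ratio does not cover the spread between cells. Split by Nr2f2, the day 7 cells with it (856) held 7.49 CPM of Cyp11a1 and those without it (1315) 137 CPM. These 2 levels rest on few cells: 48 cells held Cyp11a1 on day 7, with up to 69 UMIs in 1 cell, and 9 of the 48 held Nr2f2. On day 14, in 354 and 619 cells, Gata6 stood at 29.4 and 13.9 CPM (2.12), Nr2f2 at 54.6 and 96.8 CPM (0.459 to 0.694 for the ratio) and Nr4a1 at 4.85 and 14.8 CPM (0.328). Gata4 stood at 43.0 CPM in cells with Nr5a1, a ratio of 1.17 to those without it, with an interval (0.882 to 1.56) that holds 1.

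Among the day 14 cells without Cyp11a1, those with Nr5a1 held less Nr2f2 and more Gata6. In 70 cells with Nr5a1 and 347 without it, Nr2f2 stood at 53.8 and 127 CPM (0.422, 0.259 to 0.660). Gata6 stood at 28.1 and 9.16 CPM, on 12 and 10 UMIs (3.06). The Leydig hormone Insl3 was also higher in the cells with Nr5a1, at 1111 and 609 CPM (1.82, 1.62 to 2.05). Hsd3b1 is not compared within these cells, since 151 of its 507 UMIs lay in 1 cell. Among Cyp11a1-positive cells (284 and 272), Nr2f2 stood at 54.8 and 67.5 CPM (0.811, 0.611 to 1.08) and Gata6 at 29.6 and 18.4 CPM, with intervals of the ratio that reach 1. Split by Nr2f2, all day 14 cells with it (254) and without it (719) had the same Nr5a1 level, 136 CPM (ratio 1.00, 0.859 to 1.16). The Cyp11a1-negative ones with Nr2f2 (103 cells) held less Nr5a1 than those without (314 cells), 41.9 against 74.2 CPM (0.565, 0.337 to 0.914), and less Insl3, 474 against 907 CPM. Split by Gata4, the cells of day 14 differed little in Gata6 (22.8 and 23.0 CPM) and Nr2f2 (68.3 and 74.0 CPM). In each split by Nr5a1, Nr2f2 or Gata4 the cells with a UMI of the gene had the higher median depth, which CPM scales for but class membership does not.

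Genes known to be bound or activated by NR5A1 in steroid-making cells form a list that, like the other lists here, was chosen with earlier results of these data known. Between days 4 and 14, 11 of its 12 tested genes rose and 0 fell, with a median log2 ratio of 4.05, beside 13.5% of all genes higher, 15.3% lower and a median of -0.05. Star, which carries cholesterol into the mitochondrion, was read early, at 197, 362 and 1012 CPM on days 4, 7 and 14 (5.14-fold, 4.90 to 5.39). Hsd3b1 stood at 11.5, 20.2 and 1770 CPM, and Cyp17a1, needed for androgens, at 2 UMIs on day 4 and 856 CPM on day 14. Insl3 stood at 3.39, 7.83 and 1797 CPM. Por, the electron donor of CYP17A1, stayed within 2-fold (24.3 and 27.6 CPM). Akr1b7 had 0 UMIs on day 4 and 21 on day 14. Of the day 14 UMIs of Hsd3b6, 43 lay in 1 cell, and it is a near copy of Hsd3b1, so reads may be shared between them.

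Between the classes of day 14, 8 of 11 tested targets were higher in Cyp11a1-positive cells and 0 lower (median 2.08), with Cyp11a1 left out since it sets the classes. Among targets read in both classes, the lowest ratio was 1.70 for Scarb1 (207 and 122 CPM). It was 1.81 for Star (1160 and 641 CPM), 7.02 for Hsd3b1 (2343 and 334 CPM) and, as the highest, 60.3 for Cyp17a1 (1190 and 19.8 CPM). Of the 507 Hsd3b1 UMIs in the negative cells, 151 lay in 1 cell. Akr1b7, one of those higher, had 0 UMIs in the negative cells and therefore no ratio. Cells without a Cyp11a1 UMI were thus not without Leydig RNA: Insl3 was read in 50.1% of them and Star in 56.4%. Barcodes that the authors removed on day 14 held 2568 CPM of Cyp11a1 (318 UMIs, 2293 to 2866) against 2089 CPM in the cells kept, while those of days 4 and 7 held 0 UMIs of it. How far free RNA placed Leydig UMIs, or Nr5a1 UMIs, in day 14 cells was not tested.

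Among other families, the 22 tested nuclear receptors outside the set had 3 genes higher on day 14 than on day 4 (Rora, Ppara and Thrb) and 1 lower, with a median log2 ratio of 0.28, where 13.5% of all genes were higher and 15.3% lower. The share of these receptors that rose is thus close to that of all genes. The one that fell is Nr3c1, the glucocorticoid receptor, 2.77-fold (2.49 to 3.09), from 199 to 71.7 CPM. Of 21 other gonadal transcription factors 9 fell (median of the list -0.46), and the count of those that rose is not reported here. Among those that fell were Tcf21, a marker of stromal progenitors, from 30.9 to 14.1 CPM, the GATA cofactor Zfpm2 from 19.96 to 6.01 CPM, and the Notch target Heyl from 60.8 to 3.94 CPM. Of 11 nuclear receptor coregulators 1 rose and 1 fell (median -0.20). Between the classes of day 14, 2 of 20 nuclear receptors (Ppara and Esr1), 1 of 12 transcription factors and 1 of 10 coregulators were higher in positive cells, and 0, 4 and 0 lower (medians -0.01, -0.57 and -0.18), beside 3.37% and 3.15% of all genes. The coregulator Cited2, on both of these lists and a partner of WT1 at the Nr5a1 gene, was the one higher, at 109 against 37.5 CPM (2.91, 2.21 to 3.91).

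Nr4a1 is also an immediate-early gene, and such genes respond to the dissociation of tissue into cells. Of 17 tested genes of that list 2 rose (Fos and Fosb) and 6 fell from day 4 to day 14 (median -0.47, all genes -0.05), with a summed level of 1043, 795 and 671 CPM over the days. On day 14, 0 of 16 were higher and 7 lower in Cyp11a1-positive cells (median -0.93, all genes -0.04), at a sum of 531 CPM (508 to 554) against 1022 CPM (972 to 1075). Its top gene there was Egr1, at 115 and 217 CPM, and Egr3 was at 0 in both classes. The list thus moves in the same direction as Nr4a1 between the classes, and its part in the Nr4a1 difference was not tested.

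Markers of cell types check the labelled culture, and their counts stand beside the shares of all genes given above (13.5% higher and 15.3% lower between days 4 and 14, 3.37% and 3.15% between the classes). The 6 Leydig markers summed to 232, 449.6 and 7563 CPM on days 4, 7 and 14, with Star on top on days 4 and 7 and Cyp11a1 on day 14, and 6 of 6 rose (median 6.91). The myofibroblast markers summed to 5128, 4470.5 and 176 CPM, led by Acta2, with 6 of 6 lower on day 14 (median -4.32) and Cnn1 at 0. The stromal progenitor markers summed to 1561, 791 and 1666 CPM, led by Dcn, with 0 of 6 higher and 1 lower (median -0.36). Nr2f2 and Lhx9 were thus lower on day 14 along with the myofibroblast markers, and the part of a change in cell types in the levels by day was not tested. In the classes of day 14, 4 of 5 tested Leydig markers were higher in positive cells (median 2.81), 3 of 6 stromal markers lower (median -0.80, 1345 against 2470 CPM) and 3 of 4 myofibroblast markers lower (median -2.30, 76.5 against 426 CPM). The part of these cell types in the class levels of Nr2f2 and Lhx9 was not tested.

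Sertoli markers, which would accompany Gata4 and Wt1, summed to 1017, 1671 and 3394 CPM, but the sum is led by the protease Ctsl (903, 1157 and 2767 CPM), and Amh was at 0 on each day. Of 4 tested 2 rose (Clu and Ctsl) and 2 fell (Sox9 and Rhox5; median 0.30). Mesothelial markers, a list that holds Wt1, summed to 13.6, 8.26 and 9.39 CPM, led by Upk1b, with Upk3b, Msln, Krt8, Krt18 and Krt19 at 0 on day 14, 1 of 3 higher and 1 lower (median 0.32), counted without Wt1. Granulosa markers summed to 998, 820.4 and 179 CPM, led by Inhba, with 1 of 3 higher and 2 lower (median -2.41). The adrenal cortex list summed to 2.76, 0.860 and 1.69 CPM, led by Cyp11b1, the 1 gene tested, which was lower (-1.10). Endothelial markers summed to 88.3, 119 and 35.9 CPM, led by Cdh5, with 0 of 3 higher and 2 lower (median -1.57). Germ cell markers summed to 116, 19.2 and 39.1 CPM, led by Prm1, with 0 of 3 higher and 3 lower (median -1.54).

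Among macrophage markers Lyz2 was higher on day 14 and, within that day, in the Cyp11a1-positive cells. The markers summed to 8.76, 25.9 and 215 CPM over the days, led by Lyz2 on day 14 and with C1qb at 0 there, and 2 of 3 tested genes rose (Lyz2 and Cd68; median 2.52). On day 14 the sum was 276 CPM in Cyp11a1-positive and 60.6 CPM in negative cells, with 1 of 2 tested genes higher (Lyz2) and 0 lower. Lyz2 makes up most of both sums, at 258 and 52.7 CPM, and C1qa was also at 0 in the positive cells. On day 7 the sum was 7.70 CPM on 2 UMIs (0.932 to 27.8) against 26.3 CPM, and on day 4 it was 0 UMIs, a limit of 16.4 CPM, against 8.88 CPM, so the classes of those days are not told apart. The part of these markers in the Nr5a1 differences was not tested. Between the classes, 1 of 3 granulosa genes was higher (Amhr2), 1 of 2 endothelial genes lower, and 0 of 3 Sertoli, 0 of 3 germ cell and 0 of 1 mesothelial genes passed 2-fold, while 0 adrenal genes could be tested. Doublets, 2 cells under 1 barcode, were kept: Scrublet called 3 of 6124 cells, too few to be a working call, and leaving out the 6% of cells with the highest score kept the calls counted above between days and between the day 14 classes. On day 7 it moved Lhx9 between the classes from log2 -1.003 to -0.976, across the 2-fold line.

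By a rule fixed beforehand, the genes with the most similar pattern were sought over the 4 groups of day and class with at least 50 cells. For Nr5a1 they were 9430020K01Rik, Phyh, Uqcr10, Adgrl1 and 4930486L24Rik, for Gata4 Tmem160, 4930486L24Rik, Adgrl1, Fam210a and Mvd, and for Nr2f2 Dhx8, Hnrnpa1, Lemd2, Cdc42se1 and Tmem110. With 4 points many genes match: 519, 479 and 403 of 6675 genes had a Pearson correlation above 0.95 with Nr5a1, Gata4 and Nr2f2. The names are a description over groups that share libraries.

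The 9 genes lie on 8 chromosomes, with Nr5a1 (chr2:38692656-38714542) and Wt1 (chr2:105126529-105173616) on the same one. In the GENCODE M21 annotation of GRCm38, 4 of the 9 share their 5′ end with a gene on the other strand: Nr5a1 with Nr5a1os, Gata6 with 1010001N08Rik, Nr2f1 with A830082K12Rik and Nr2f2 with B130024G19Rik. None of these antisense genes covers the 3′ end that Drop-seq reads. The antisense gene of Nr2f1 had more UMIs than Nr2f1 itself, 89, 164 and 32 on days 4, 7 and 14, while that of Nr5a1 had 5 on each day and that of Nr2f2 109, 71 and 38. The strand setting of the counting is not given in the sources used here.

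Promoter sequence was read for what is known of these factors: NR5A1 binds AAGGTCA, which reads TGACCTT on the other strand, and GATA factors bind AGATAA, which reads TTATCT there. In the 250 bases upstream of the start, from RefSeq for the build GRCm38.p6 and on both strands, 4.08% of 32851 windows hold AAGGTCA and 9.99% hold AGATAA. Of the 9 genes 5 have a window (Lhx9, Nr4a1, Nr2f1, Nr2f2 and Nr0b1), and these letters are not in them. Nr5a1, Gata4, Gata6 and Wt1 have no window there. Of the 14 target genes 9 have a window, 1 with AAGGTCA (Akr1b7) and 2 with AGATAA (Hsd3b1 and Hsd3b6). A match describes the letters and is not evidence of binding. The windows shown are those of Nr2f2 (chr7:70366747-70366996, minus strand), the gene of the set with the most UMIs among those with a window, and of the 3 targets with a match: Akr1b7 (chr6:34412112-34412361, plus strand), Hsd3b1 (chr3:98859795-98860044, minus strand) and Hsd3b6 (chr3:98814444-98814693, minus strand). Each runs 5′ to 3′ on the strand of its gene, with capitals marking either of these motifs on either strand.
Nr2f2: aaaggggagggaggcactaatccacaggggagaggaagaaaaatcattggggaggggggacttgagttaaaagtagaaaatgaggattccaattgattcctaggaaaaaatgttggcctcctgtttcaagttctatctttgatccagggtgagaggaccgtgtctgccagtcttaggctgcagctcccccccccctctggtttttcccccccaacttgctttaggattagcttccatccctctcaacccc
Akr1b7: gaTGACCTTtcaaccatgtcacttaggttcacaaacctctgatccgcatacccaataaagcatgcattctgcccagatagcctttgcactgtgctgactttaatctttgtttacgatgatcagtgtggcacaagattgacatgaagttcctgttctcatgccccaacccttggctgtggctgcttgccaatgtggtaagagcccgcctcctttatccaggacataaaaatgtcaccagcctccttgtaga
Hsd3b1: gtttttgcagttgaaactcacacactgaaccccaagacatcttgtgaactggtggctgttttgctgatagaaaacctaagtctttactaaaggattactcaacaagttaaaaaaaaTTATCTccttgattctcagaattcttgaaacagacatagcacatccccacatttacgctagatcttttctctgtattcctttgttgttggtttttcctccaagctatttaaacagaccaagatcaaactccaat
Hsd3b6: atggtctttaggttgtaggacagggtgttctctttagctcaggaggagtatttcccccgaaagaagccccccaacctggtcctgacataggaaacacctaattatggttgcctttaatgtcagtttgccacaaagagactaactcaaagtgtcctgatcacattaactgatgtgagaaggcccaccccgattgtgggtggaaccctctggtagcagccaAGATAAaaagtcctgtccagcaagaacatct

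Missing from the promoter file used here are also Star, Cyp17a1, Scarb1, Amh and Mc2r. In Akr1b7 the match begins 248 bases before the start on the opposite strand, in Hsd3b1 134 bases before it on the opposite strand, and in Hsd3b6 31 bases before it on the same strand.

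In these libraries, then, Nr5a1, Gata6 and Gata4 rose between days 4 and 14, mostly after day 7, while Nr2f2 and Lhx9 stood at ratios of 0.511 and 0.576, short of 2-fold. Within day 14, Nr5a1 was higher in cells with Cyp11a1. That call ended with Cyp17a1 in place of Cyp11a1 and with Cyp11a1 read after thinning. Nr4a1 was lower in cells with Cyp11a1, on 18 against 30 UMIs. Its call was not kept with thinned cells or with Cyp11a1 read after thinning. Nr2f2 and Lhx9 were also lower in those cells, at ratios of 0.549 and 0.583, short of 2-fold. Under some alternatives, thinned cells among them, Lhx9 alone or both genes passed 2-fold. On days 4 and 7 most cells with Nr5a1, like most of all cells, held no Cyp11a1 UMI. The Cyp11a1-positive share was still higher among cells with Nr5a1 than among all cells. It was 3.79% against 0.805% on day 4 and 7.41% against 2.21% on day 7. Nr0b1 was not read. With 1 library per day these differences between days have no measure of variation between cultures.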

How the data were processed

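Single cells of 3 cultures, 1 library per day (days 4, 7 and 14), were read by Drop-seq. The authors deposited UMI counts, as 1 merged table of filtered cells and 1 table of counts per day. Their processing notes name Picard 2.6.0, SAMtools 1.2 and STAR 2.5.2a with GRCm38, and their filter kept cells in which 500 genes or more were detected and mitochondrial UMIs were no more than 10%. The merged table holds 24698 genes and 6124 cells of these days (2980, 2171 and 973). Its other 495 columns were not used here. The cells' counts were checked against the tables per day, with 0 entries differing, and 0 barcodes were shared between libraries.

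Raw UMIs were summed over the cells of a day, or of a class by Cyp11a1 UMIs within a day, and scaled to 1000000 UMIs (CPM), with exact Poisson and Clopper-Pearson 95% intervals and an exact conditional binomial interval for ratios. No test between days was possible with 1 library per day, and cells are not replicates. The libraries hold 12677110, 11627440 and 5324400 UMIs, so 3 counts are 0.237, 0.258 and 0.563 CPM. A gene with at least 20 UMIs in the groups compared counts as changed at 2-fold, after 1 CPM is added. Shares of cells were also taken after thinning to 1500 UMIs (seed 1), which leaves out 753, 429 and 179 cells. Scrublet (scanpy 1.11.5) scored doublets, and they were kept. Python 3.11.15, numpy 2.4.6, scipy 1.17.1, pandas 2.3.3 and matplotlib 3.10.9 were used, and the code was tested on simulated data.

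The 9 genes and the gene lists were chosen with earlier results of these data known. Named genes are the 9 genes, Cyp11a1, all genes of the lists (NR5A1 targets, other nuclear receptors, other gonadal transcription factors, coregulators, immediate-early genes and markers of 10 cell types) and, for Nr5a1, Gata4 and Nr2f2, the 5 genes with the highest Pearson correlation of log2(CPM + 10) over the groups of at least 50 cells, among genes with at least 500 UMIs. No other gene is named but the antisense neighbours of 4 genes. The alternatives tried were no cell filter, a stricter one (from 800 genes, up to 5% mitochondrial), leaving out cells above 20000 UMIs or the 6% with the highest doublet score, cells weighted equally, cells thinned (1500 or 1000 UMIs), 0.1 CPM added, genes with at least 100 UMIs, and classes by at least 2 or 5 Cyp11a1 UMIs, by Hsd3b1, by Cyp17a1 or by Cyp11a1 after thinning.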

Additional observations from a re-analysis of the deposited data

Results flagged for a closer look

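The barcodes that the authors removed from each day enter the alternative without a cell filter and, for Cyp11a1, the comparison with kept cells given above. In them 11 values, of the 9 genes and Cyp11a1, lie above the limit that a count of 0 allows. Nr2f2 stood at 168 CPM on day 4 (27 UMIs in 320 barcodes), 175 CPM on day 7 (21 UMIs in 229 barcodes) and 88.8 CPM on day 14 (11 UMIs in 327 barcodes, 44.3 to 159). Lhx9 stood at 49.8 CPM on day 4 (8 UMIs), 66.8 CPM on day 7 (8 UMIs) and 32.3 CPM on day 14 (4 UMIs). Nr5a1 stood at 41.8 CPM on day 7 (5 UMIs, 13.6 to 97.5) and 96.9 CPM on day 14 (12 UMIs, 50.1 to 169). Gata4 stood at 41.8 CPM on day 7 (5 UMIs) and Nr4a1 at 24.9 CPM on day 4 (4 UMIs). Cyp11a1 stood at 2568 CPM on day 14 (318 UMIs). The removed barcodes had a median of 569, 580 and 319 UMIs on the 3 days.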

How the results depend on the processing

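No paired analysis was possible because each day has 1 library. Nr5a1 on day 14 over day 4 had a log2 ratio of 3.49, and 3.26 to 3.59 under the alternatives. Over all alternatives, 314 of 361 log2 ratios of the 9 genes stayed within their counting interval, 46 moved outside it, and 1, past the 2-fold line as reported, turned: Nr4a1 between the classes of day 14, at 0.15 on 4 against 4 UMIs with Cyp11a1 read after thinning, where few UMIs are left. In all 22 changed sign, among them Nr2f1 between the day 7 classes, from -0.98 to 1.08 with cells thinned to 1000 UMIs and 1.11 with Cyp11a1 read after thinning, on 1 UMI in the positive cells. Nr5a1 between the day 14 classes, at 1.39, had 0.77 with Cyp17a1 in place of Cyp11a1 and 0.97 with Cyp11a1 read after thinning, and 1.23 to 1.71 otherwise. The number of genes higher in the positive cells of day 14, 1, was 2 with at least 5 Cyp11a1 UMIs and with Hsd3b1 in place (Gata6 added), and 0 with Cyp17a1 in place and with Cyp11a1 read after thinning. The number lower, 1, was 2 with cells thinned to 1000 UMIs, with at least 2 Cyp11a1 UMIs and with Cyp11a1 read after thinning, 3 with at least 5 Cyp11a1 UMIs and with Hsd3b1 in place, and 0 over genes with at least 100 UMIs, where Nr4a1 is not tested. Lhx9 and Nr2f2 replace Nr4a1 in both of the thinned settings named, Lhx9 joins it with at least 2 Cyp11a1 UMIs, and both join it where 3 are lower. With cells thinned to 1500 UMIs the number stays 1, but the gene is Lhx9. Between days 4 and 14 the number lower, 0, was 1 with the stricter cell filter (Nr2f2, log2 -1.01). The number higher, 3, was 4 with equal weight and at 1000 UMIs (Nr4a1 added) and 2 at 1500 UMIs. From day 4 to day 7 the number higher, 0, was 1 with equal weight (Nr5a1), 2 at 1500 UMIs (Nr5a1 and Nr2f1) and 1 at 1000 UMIs (Nr2f1). From day 7 to day 14 the number higher, 2, was 4 with equal weight and at 1000 UMIs (Gata4 and Nr4a1 added) and 3 at 1500 UMIs and with 0.1 CPM added, and the number lower, 1, was 2 with the stricter filter (Nr2f2 added) and 0 at 1500 UMIs. Of 110 numbers of genes 86 stayed within 1.5 times and 24 did not, and of 46 shares of all genes 40 did and 6 did not. Apart from the smaller set of genes tested, the cause of these moves was not tested. Depth limits the genes with few UMIs: at 1500 UMIs per cell Nr4a1 had 4 UMIs in each class of day 14.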
